A study of Mus musculus with 6 samples.

Results

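Olfr78 and Olfr558 are odorant receptor genes, and their transcripts were followed here in cancer-associated fibroblasts (CAFs) sorted from mouse colon tumors. Both were chosen because their levels differed between the sorted groups, so the difference between groups is given below as a description with no test. They were found by their gene symbols in the deposited table, which made them 2 of 49548 genes. The mice were adult C57/BL6 animals carrying Col6a1-cre and the Rosa26-mTmG reporter, in which cells switch from membrane Tomato to membrane GFP once Cre has acted. Colon adenomas were induced in all of them with AOM/DSS, a mutagen followed by an agent that inflames the colon. Cells negative for CD45, EpCAM, CD31 and Ter119, which mark leukocytes, epithelium, endothelium and erythroid cells, were sorted by reporter into 3 libraries of GFP+ cells (Col6a1+ CAFs) and 3 of Tomato+ cells (Col6a1− CAFs). Both groups therefore carried the Cre, the reporter and the carcinogen treatment, and no untreated tissue was analysed here. According to the study, the Col6a1-cre transgene acts in PDGFRα-high fibroblasts and in pericytes. The Col6a1+ sort is therefore a mixture of cell types. The cells of the tumors of several mice went into a library, and in such bulk samples fewer cells of a type and less RNA per cell cannot be told apart.

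Odorant receptors are G protein-coupled receptors, and in the nose they act through the olfactory G protein, adenylyl cyclase 3 and a cyclic nucleotide-gated channel. A few of them are also made outside the nose. Olfr78, the mouse counterpart of human OR51E2, responds to the short-chain fatty acids acetate and propionate and is known from arterial smooth muscle, renin-producing cells of the kidney, glomus cells of the carotid body and enteroendocrine cells of the colon. Olfr558, the counterpart of human OR51E1, responds to butyrate and short branched fatty acids and is known from blood vessels and from enterochromaffin cells of the gut.

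The genes lie close together on mouse chromosome 7 (mm10). Olfr558 (ENSMUSG00000070423) was placed on the plus strand from 102702215 to 102712064, and Olfr78 (ENSMUSG00000043366) on the minus strand from 102740431 to 102759471. Their spans are 28366 bases apart. The coding sequence of Olfr78 is 960 bases long and lies in 1 exon (102742042 to 102743001), and that of Olfr558 is 951 bases long and lies in exon 2 of 2 (102709261 to 102710211). In a global alignment of the coding sequences, 611 of 939 aligned positions were identical (65.1%). The stretch below is shown because it surrounds the longest run of identical bases that the coding sequences share. It lies in the coding sequence, while the reads come mostly from transcript 3′ ends. It comes from the GENCODE transcripts and is given 5′ to 3′ in the sense of each gene, with the 24 of 90 bases that differ in capitals. Olfr78 is at chr7:102742606-102742695 on the minus strand (coding bases 307 to 396) and Olfr558 at chr7:102709576-102709665 on the plus strand (coding bases 316 to 405).
Olfr78: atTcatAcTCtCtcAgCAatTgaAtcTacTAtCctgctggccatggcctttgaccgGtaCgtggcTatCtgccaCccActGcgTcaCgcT
Olfr558: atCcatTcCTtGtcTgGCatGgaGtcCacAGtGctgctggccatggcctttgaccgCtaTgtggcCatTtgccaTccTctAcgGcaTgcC

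The longest run of identical bases that the transcripts shared was 23 bases. No transcript of another gene matched either of them at 95% identity or more over at least 50 bases, apart from those of genes that overlap them on the chromosome. These were Olfr560, which lies inside Olfr78 on the same strand and had normalized counts of 0, 0 and 5 in Col6a1+ CAFs and 0 in every Col6a1− library, and Gm45688, which lies antisense to Olfr558 and was listed at 0 in all 6 libraries. In the annotation read here the 3′ end of Olfr78 reaches 1920 bases further than in the deposited table, and what reads from that stretch would add was not tested.

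The promoter of Olfr558 is shown because the gene stood at a high level in 1 group. The bases directly upstream of its annotated start, taken from RefSeq (GRCm38.p6, chr7:102702073-102702214, plus strand), carry in capitals the match to CANNTG, the E-box that basic helix-loop-helix factors bind.
Olfr558 promoter: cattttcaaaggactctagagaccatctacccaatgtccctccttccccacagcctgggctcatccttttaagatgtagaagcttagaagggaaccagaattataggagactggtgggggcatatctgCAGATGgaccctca

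That E-box was the single match among the 250 bases before the RefSeq start, searched on both strands, and 66.2% of 32851 promoter windows of that length held such a match. The RefSeq start lies 108 bases downstream of the annotated start, so the window reaches past the bases shown. TGGGAA, the core bound by the Notch effector RBPJ, matched once in the window, against 21.6% of promoters with at least 1 match. That match is not in the bases shown and lies inside the annotated gene. ACGTG, bound by hypoxia-inducible factors, had no match (16.6% of promoters), nor had GCGTG (28.2%) or the CArG box of serum response factor (1.47%). These matches describe letters in a window and were not tied to binding.

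Olfr78 had 480, 124 and 205 normalized counts in the 3 Col6a1+ libraries and 1, 0 and 0 in the 3 Col6a1− libraries. Every Col6a1+ library was thus above every Col6a1− library, and 2 of the Col6a1− libraries had no count at all. The means were 270 ± 187 and 0.333 ± 0.577 (SD, n = 3 per group). The groups lay 7.52 apart on the log2(normalized count + 1) scale. Taken over the groups' sums of 809 and 1 counts, the ratio was 809, with an exact (Clopper-Pearson) 95% interval of 145 to 31993. That interval treats normalized counts as if they were read counts and leaves out the spread between libraries. Since the gene was chosen on this contrast, the interval is a description and no test. The log2 difference depended on the pseudocount, and 0.1 in place of 1 gave 10.02.

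Olfr558 had 1258, 308 and 514 normalized counts in Col6a1+ CAFs and 4, 13 and 8 in Col6a1− CAFs. Again the groups did not overlap, but here each Col6a1− library held a few counts. The means were 693 ± 499.7 and 8.33 ± 4.51 (SD, n = 3 per group), a difference of 6.09 on the log2(normalized count + 1) scale. The sums of 2080 and 25 counts gave a ratio of 83.2 (exact 95% interval with the same limits, 56.2 to 129). Groups of this kind, with all Col6a1+ libraries higher, were found for 7.91% of the 26402 genes with a count in any library. Because the genes were picked on this contrast, nothing is read from both being among them. By log2 difference Olfr78 ranked 2 and Olfr558 ranked 13 among those genes, and the plot of counts by library shows their spread.

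**Figure D1:**
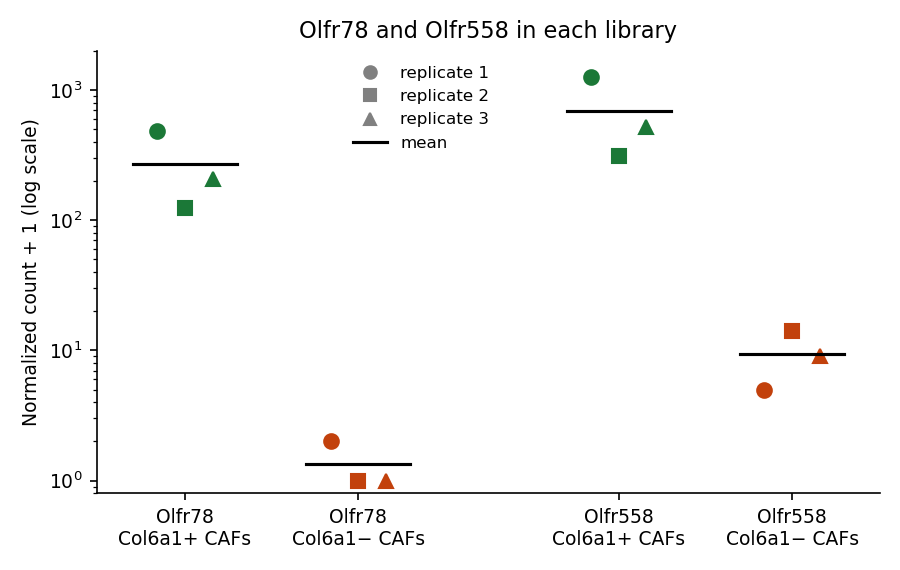
Normalized counts of Olfr78 and Olfr558 in each of the 6 libraries (vertical axis, normalized count + 1 on a log scale), with the marker shape giving the replicate number and a line the group mean (n = 3 per group). The Col6a1+ libraries lie between 124 and 480 counts for Olfr78 and between 308 and 1258 for Olfr558, and the Col6a1− libraries between 0 and 1 and between 4 and 13.

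Levels of the genes were also set side by side per length of the gene model, which is 4116 bases for Olfr78 and 3104 bases for Olfr558. On that scale Olfr78 had 117, 30.1 and 49.8 normalized counts per kilobase in Col6a1+ CAFs and 0.243, 0 and 0 in Col6a1− CAFs. Olfr558 had 405, 99.2 and 166 per kilobase in Col6a1+ CAFs and 1.29, 4.19 and 2.58 in Col6a1− CAFs. Olfr558 was therefore the higher of the pair in every library on this scale, as it was in normalized counts. The reads come mostly from transcript 3′ ends, where counts need not grow with length, so the level per length is only a rough guide. What reads from the 3′ end of Olfr78 beyond the deposited gene model would add was not tested. Within the Col6a1+ group, the level per base placed Olfr78 at rank 2411 of 26402 genes and Olfr558 at rank 817.

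The ratio of Olfr558 to Olfr78 hardly varied among the Col6a1+ libraries, at 2.62, 2.48 and 2.51 in normalized counts, although each gene spanned a wide range there. The highest Col6a1+ library stood 3.87-fold over the lowest for Olfr78 and 4.08-fold for Olfr558. For both genes replicate 1 was the highest and replicate 2 the lowest. That order was held by 17.2% of the 13515 genes whose mean was 10 normalized counts or more, and by 27.4% of the 1913 among them whose Col6a1+ libraries were all above the Col6a1− libraries. Among those 1913 genes the median ratio of replicate 1 to replicate 2 was 1.22, and 4.34% of them had a ratio at least as high as that of Olfr78. Markers of pericytes, the cells that wrap capillaries, summed to 91348, 41767 and 47230 normalized counts in the Col6a1+ libraries. Smooth muscle markers summed to 19571, 14016 and 26138. Replicate 1 was thus also the highest for the pericyte sum, to which Mcam, an adhesion molecule of vessel walls, gave 38662 counts in that library against 5341 and 6072 in the others. The part of these markers in the spread of the receptors was not tested. Without Col6a1+ replicate 1 the log2 difference was 6.99 for Olfr78 and 5.54 for Olfr558.

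The genes around Olfr78 and Olfr558 were nearly silent. Within 250 kb on either side the table held 48 other genes, and 37 of these were odorant receptor genes, of which 31 were listed at 0 in all 6 libraries. The highest value among the 37 was 8 normalized counts, for Olfr545. Between the pair lie Olfr33 and Olfr559, both listed at 0 throughout, and Gm24210, with 1 count in a single Col6a1− library. Of the 11 neighbours with any count, 0 were called by limma at an adjusted p under 0.05 (4.62% of all genes tested were called). In 0 did the Col6a1+ libraries all lie above or all below the others (7.91% and 11.6% of all genes tested). Apart from Trim68 and Trim21, none of the 11 went over 8 counts in any library. At such levels a call was hardly possible, so nothing is read from these counts of 0. Trim68, a ubiquitin ligase gene in the window, had the highest level of the neighbours. It had 115, 36 and 35 normalized counts in Col6a1+ CAFs and 54, 14 and 28 in Col6a1− CAFs. Its groups overlapped, with a log2 difference of 0.90 (limma, adjusted p = 0.590).

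**Figure D2:**
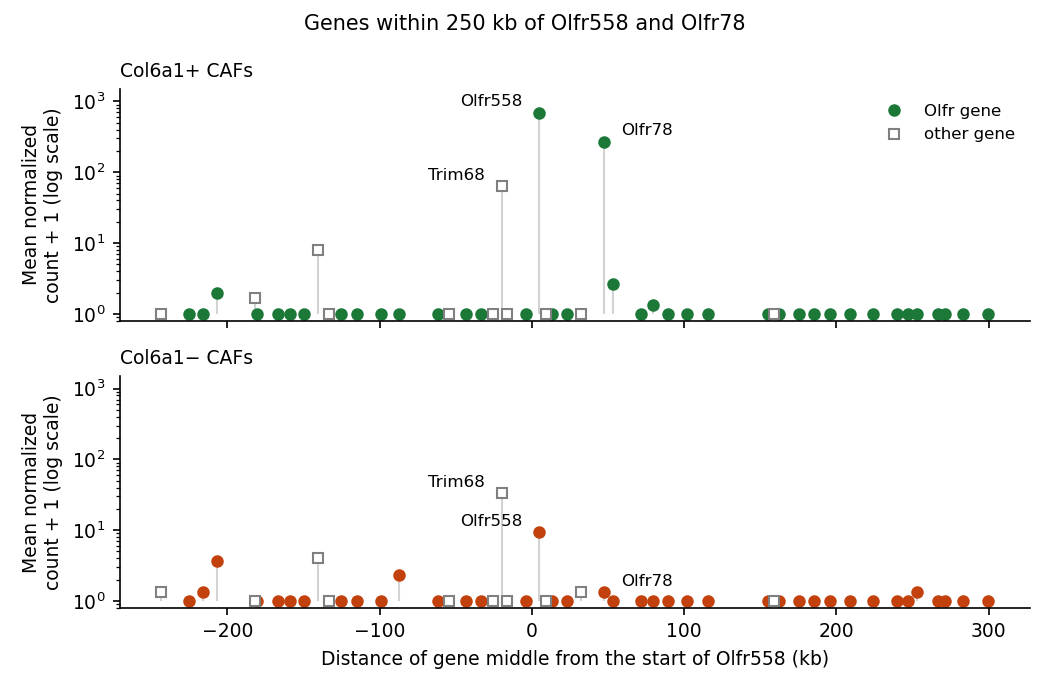
Mean normalized count + 1 (vertical axes, log scale) in Col6a1+ CAFs (upper panel) and Col6a1− CAFs (lower panel) for the genes within 250 kb of Olfr78 and Olfr558, by the distance of the gene's middle from the start of Olfr558 in kilobases (horizontal axis), with circles for Olfr genes and squares for other genes. Olfr78 and Olfr558 stand above the genes around them in Col6a1+ CAFs, while Trim68 is the highest in Col6a1− CAFs.

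Across the genome, odorant receptor genes other than the pair were close to absent from these cells. Of 1417 other genes with an Olfr symbol, 1238 were listed at 0 in every library (87.4%, against 46.7% of all genes). Of the 179 with any count, 149 never exceeded 3 normalized counts, 23 reached 4 to 10, and 7 went over 10. With the exception of Olfr1372-ps1, the highest value in any library was 18. Among these 179 genes, limma called 0 higher in Col6a1+ CAFs (2.66% of all genes tested) and 1 lower (1.96% of all genes tested). The median log2 difference of the 179 was −0.33, beside −0.27 over all genes tested. In 1 of them all Col6a1+ libraries were above the Col6a1− libraries, and in 2 they were all below, against 7.91% and 11.6% of all genes tested.

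The exception was Olfr1372-ps1 (ENSMUSG00000108218), a transcribed pseudogene on the minus strand of chromosome 11 (mm10, 52154722 to 52168159). It was listed at 0 in all 3 Col6a1+ libraries and had 221, 94 and 203 normalized counts in the Col6a1− libraries. Its groups did not overlap, and it ran in the opposite direction to Olfr78 and Olfr558. Against a floor of 3 counts per library its mean of 172.7 ± 68.7 (SD, n = 3) in the Col6a1− group made it at least 57.6-fold lower among Col6a1+ CAFs. The limma test gave an adjusted p of 0.00131, with 5.79e-04 to 0.0612 over the alternatives, and 0.0580 without Col6a1− replicate 1. The other 6 genes over 10 counts were Olfr652, Olfr56, Olfr1033, Olfr691, Olfr482 and Olfr54. Of these Olfr56 had 16, 7 and 4 counts in Col6a1+ and 7, 10 and 3 in Col6a1− CAFs, with groups that overlapped.

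Olfr78 and Olfr558 together made up 96.3%, 81.2% and 91.7% of all normalized counts from Olfr genes in the Col6a1+ libraries. In the Col6a1− libraries they made up 1.80%, 4.68% and 1.93%, and 8.77%, 7.07% and 3.79% when Olfr1372-ps1 was left out of the total. Their summed normalized counts were 1738, 432 and 719 in Col6a1+ CAFs and 5, 13 and 8 in Col6a1− CAFs. Most odorant receptor counts of each Col6a1+ library thus came from this pair, as the plot of all Olfr genes shows.

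**Figure D3:**
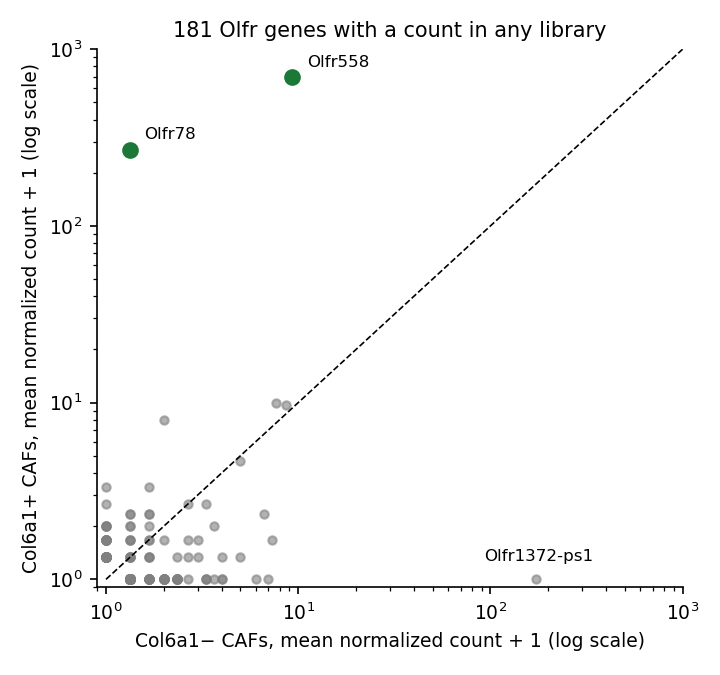
Mean normalized count + 1 of each Olfr gene with a count in any library, in Col6a1− CAFs (horizontal axis, log scale) and Col6a1+ CAFs (vertical axis, log scale), with 1 point per gene, n = 3 libraries per group and a dashed line of equal level. Olfr78 and Olfr558 lie alone at the upper left, Olfr1372-ps1 lies at the lower right, and the remaining genes sit near the origin.

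The genes whose profile over the 6 libraries was most like that of Olfr78 were mostly low or at 0 in Col6a1− CAFs. Likeness was the root-mean-square difference of log2 values, each centred on its gene's mean, over the 6 libraries and among genes whose mean was 10 normalized counts or more. Since this measure follows the difference between groups, the values are descriptions. The nearest to Olfr78 was Heyl, a transcriptional repressor downstream of Notch, at 0.40. Heyl had 534, 229 and 325 normalized counts in Col6a1+ CAFs and 1 in each Col6a1− library. Fabp7, a fatty acid binding protein, followed at 0.45, with 367, 88 and 278 counts in Col6a1+ CAFs and 0 in each Col6a1− library. Replicate 2 was the lowest Col6a1+ library for both, as for Olfr78. The next were 1810011H11Rik (0.59), Ephx3, an epoxide hydrolase (0.62), and Galnt16, a glycosyltransferase (0.72).

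Among the 5 genes nearest to Olfr558, Art3, of the ADP-ribosyltransferase family, lay at 0.43. Art3 had 183, 82 and 130 normalized counts in Col6a1+ CAFs and 1, 2 and 1 in Col6a1− CAFs. It was highest in Col6a1+ replicate 1 and lowest there in replicate 2, as Olfr558 was. H2-M9, a non-classical class I histocompatibility gene, lay at 0.48, Tusc5 at 0.49 and Cox4i2, an isoform of a cytochrome c oxidase subunit, at 0.58. The 5 nearest genes of Olfr78 and the 5 of Olfr558 had no gene in common. Olfr78 and Olfr558 were 1.03 apart from each other, which made Olfr558 the gene ranked 15 from Olfr78 and Olfr78 the gene ranked 50 from Olfr558, among 13513 genes.

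**Figure D4:**
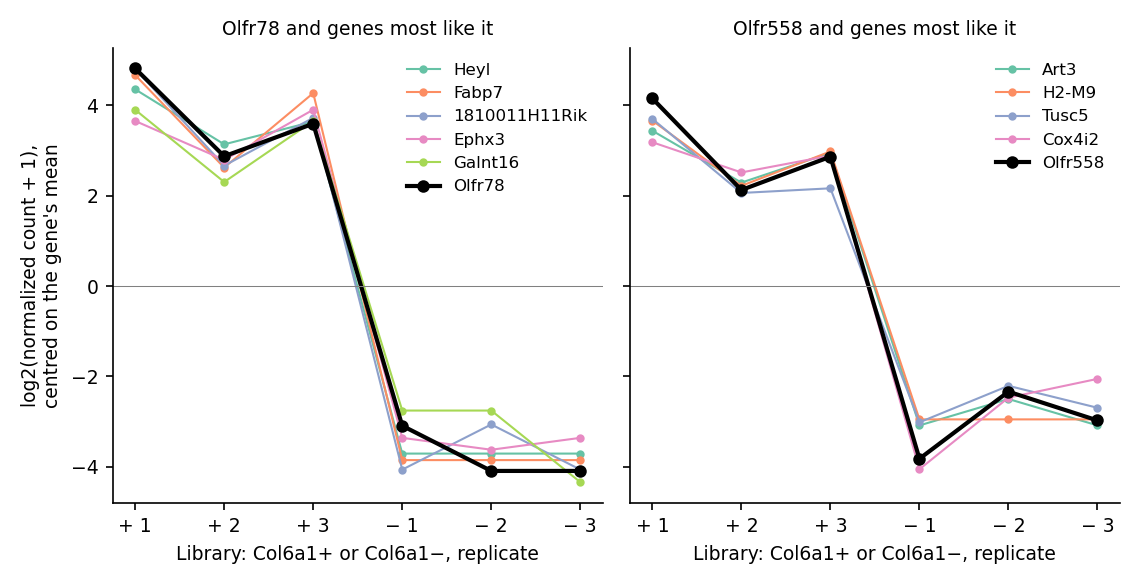
Profiles over the 6 libraries (horizontal axis) of Olfr78 (left) with its 5 nearest genes and of Olfr558 (right) with 4 of its 5 nearest genes, as log2(normalized count + 1) centred on each gene's mean (vertical axis). All lines shown drop from the Col6a1+ libraries to the Col6a1− libraries, by which they were chosen. Those shown are lowest at replicate 2 among the Col6a1+ libraries, which does not extend to the near gene of Olfr558 left out.

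Of the signalling chain that odorant receptors use in the nose, some genes were at 0 throughout and 1 was called. Of 16 genes listed for it, 6 were listed at 0 in every library, among them Cnga2 and Cnga4, subunits of the olfactory channel, and Rtp1 and Rtp2, which carry odorant receptors to the cell surface. Of the 10 tested, limma called 1 higher in Col6a1+ CAFs and 0 lower (2.66% and 1.96% of all genes tested), and the list's median log2 difference was 0.02, beside −0.27 over all genes tested. In 3 of the 10 (Adcy3, Gnas and Gnb1) all Col6a1+ libraries lay above the Col6a1− libraries, and in 2 (Omp and Reep1) all lay below. Over all genes tested these shares were 7.91% and 11.6%. The gene called was Adcy3, the adenylyl cyclase of olfactory neurons. Adcy3 had 85, 264 and 265 normalized counts in Col6a1+ CAFs and 5, 17 and 26 in Col6a1− CAFs. These groups did not overlap, and replicate 1, the highest Col6a1+ library for the receptors, was the lowest for Adcy3. The log2 difference was 3.67 (SE 0.68, limma adjusted p = 0.0130). Blocking on replicate number gave an adjusted p of 0.0612. It was 0.0335 without Col6a1+ replicate 1 and 0.0921 to 0.113 without any one of the other 5 libraries, so that the count of the list was then 0.

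Gnal, which encodes the olfactory G protein alpha subunit, had 0, 6 and 13 normalized counts in Col6a1+ CAFs and 65, 8 and 19 in Col6a1− CAFs. Its groups overlapped (limma, adjusted p = 0.390). Gnas, the stimulatory alpha subunit that most cells use, had 2393, 1378 and 1685 counts in Col6a1+ and 1330, 857 and 938 in Col6a1− CAFs. Gnas was thus abundant in both groups, with a log2 difference of 0.79 that missed the threshold (limma, adjusted p = 0.215). Omp, the olfactory marker protein gene, had 0, 9 and 7 counts in Col6a1+ CAFs and 17, 20 and 35 in Col6a1− CAFs, so that its higher counts were in the libraries where the receptors were low (limma, adjusted p = 0.284).

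Genes that make, bind or degrade cyclic AMP, the messenger that these receptors raise, were all measured. Of 31 tested, limma called 8 higher in Col6a1+ CAFs and 0 lower (2.66% and 1.96% of all genes tested), and the median log2 difference was 0.91, beside −0.27 over all genes. The 8 were the protein kinase A subunit genes Prkar1a, Prkar1b, Prkar2b and Prkacb, the phosphodiesterase genes Pde3a, Pde4a and Pde8b, and the anchoring protein gene Akap12. Prkar2b, a regulatory subunit that holds the kinase inactive without cyclic AMP, had 506, 276 and 298 normalized counts in Col6a1+ CAFs and 30, 29 and 19 in Col6a1− CAFs. Every Col6a1+ library was far above the Col6a1− libraries, with a log2 difference of 3.71 (SE 0.41, limma adjusted p = 0.00138, range over the alternatives 5.99e-04 to 0.0612, and 0.0580 without Col6a1− replicate 1). Pde3a, which degrades cyclic AMP in vascular smooth muscle, had 214, 224 and 260 counts in Col6a1+ CAFs and 32, 60 and 21 in Col6a1− CAFs. Its log2 difference was 2.72 (SE 0.45, limma adjusted p = 0.00760), with an adjusted p of 0.0552 without Col6a1+ replicate 2, 0.0687 without Col6a1+ replicate 3, 0.101 without Col6a1− replicate 1 and 0.0785 without Col6a1− replicate 3.

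Among the adenylyl cyclases other than Adcy3, Adcy5 had 377, 91 and 97 counts in Col6a1+ CAFs and 106, 24 and 3 in Col6a1− CAFs, and its groups overlapped. Adcy6 had 1022, 318 and 395 against 484, 416 and 343. Both were highest in Col6a1+ replicate 1, as the receptors were. Adcy1 lay the other way, at 1, 13 and 24 counts against 87, 60 and 195 (limma, adjusted p = 0.0588), and so did Rapgef3, an exchange factor that cyclic AMP opens, at 0, 24 and 28 against 102, 86 and 101 (limma, adjusted p = 0.129). The count of 8 for the list rested on the libraries in the fit. It was 6 without Col6a1+ replicate 1, 2 without Col6a1+ replicate 2, 1 without Col6a1+ replicate 3, 0 without Col6a1− replicate 1, 2 without Col6a1− replicate 2 and 1 without Col6a1− replicate 3. Blocking on replicate number left 0.

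Among the other receptors and carriers of short-chain fatty acids no gene was called. Of 13 genes listed, 2 were at 0 throughout, and of the 11 tested limma called 0 in either direction (4.62% of all genes tested). At an unadjusted p under 0.05, 0 were higher and 1 was lower (6.63% and 9.4% of all genes tested). The median log2 difference was −0.90, beside −0.27 over all genes tested. Ffar2, a receptor for acetate and propionate on leukocytes and enteroendocrine cells, was listed at 0 in all Col6a1+ libraries and had 5, 18 and 8 normalized counts in Col6a1− CAFs (limma, adjusted p = 0.0574). Ffar3, its close relative, was listed at 0 in all Col6a1+ libraries and had 1, 2 and 0 counts in Col6a1− CAFs. Both fatty acid receptors were thus without a count where Olfr78 and Olfr558 were high. Hcar2, the butyrate and niacin receptor, had 2, 78 and 39 counts in Col6a1+ and 9, 88 and 72 in Col6a1− CAFs, with groups that overlapped. The monocarboxylate carrier gene Slc16a3 had 722, 214 and 190 counts in Col6a1+ and 537, 388 and 270 in Col6a1− CAFs, and these groups overlapped as well.

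Enteroendocrine cells of the gut are known to make these receptors, so their markers were read beside them. Of 10 markers tested, limma called 1 higher in Col6a1+ CAFs and 1 lower (2.66% and 1.96% of all genes tested), and the median log2 difference was −1.97, beside −0.27 over all genes. The summed markers ranged from 46 to 66 normalized counts in Col6a1+ CAFs and from 61 to 105 in Col6a1− CAFs. Chga, Chgb, Insl5, Neurod1, Sct and Tph1 were at 0 in all 3 Col6a1+ libraries, in which Olfr78 and Olfr558 were high. Sct, which encodes secretin, was the gene that fell, with 27, 24 and 38 counts in Col6a1− CAFs (limma, adjusted p = 0.0133). The gene that rose was Cck, which encodes cholecystokinin, with 46, 47 and 61 counts in Col6a1+ and 1, 1 and 5 in Col6a1− CAFs (limma, adjusted p = 0.0204). Both calls held without Col6a1+ replicate 1 (0.0238 for Sct and 0.0436 for Cck, limma adjusted p) and were lost without any one of the other 5 libraries (0.0518 to 0.0892 for Sct and 0.0721 to 0.119 for Cck) and in the blocked fit (0.0719 and 0.0796). Cck thus held nearly all the marker counts of the Col6a1+ libraries.

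Glomus cells of the carotid body, in which Olfr78 is among the most abundant receptors, share with pericytes a set of genes tied to oxygen sensing. Here 12 genes were listed, which apart from the kidney gene Ren1 are known from glomus cells. Of these 9 were tested, Ren1 among them, and limma called 6 higher in Col6a1+ CAFs and 0 lower (2.66% and 1.96% of all genes tested). The median log2 difference was 3.95, beside −0.27 over all genes. The list was chosen with earlier results of these data known, so these values are a description. Th, the enzyme that starts catecholamine synthesis and defines glomus cells, was listed at 0 in every library. Kcnk9 and Cox8b were also at 0 throughout, and Higd1c and Trpc5 had no more than 1 count in any library. The 6 were Cox4i2, Ndufa4l2, Epas1, Kcnk3, Rgs4 and Rgs5. Cox4i2 was also among the 5 genes nearest to Olfr558, which were picked by their values in these libraries. Rgs5 is also on the list of pericyte markers. Epas1, the hypoxia-inducible factor 2 alpha gene, had 2269, 1736 and 2331 normalized counts in Col6a1+ CAFs and 182, 288 and 125 in Col6a1− CAFs, groups that did not overlap (log2 difference 3.48, SE 0.34, limma adjusted p = 8.62e-04). Ndufa4l2, a mitochondrial protein gene that hypoxia is known to induce, had 317, 158 and 185 counts against 1, 5 and 0 (log2 difference 6.53, SE 0.79, limma adjusted p = 0.00190). Replicate 1 was the highest Col6a1+ library for Ndufa4l2, as for the receptors. Without Col6a1− replicate 1 the limma adjusted p was 0.0609 for Epas1 and 0.0717 for Ndufa4l2. The count of 6 was 2 without Col6a1− replicate 1, 5 without any other single library, and 0 in the fit blocked on replicate number. Ren1, the renin gene of the kidney cells that carry Olfr78, had 1 count in a single Col6a1+ library.

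The mural cells of blood vessels are pericytes and smooth muscle cells, and most of their listed markers were higher in the libraries where Olfr78 and Olfr558 were high. Of 10 pericyte markers limma called 9 higher in Col6a1+ CAFs and 0 lower (2.66% and 1.96% of all genes tested), with a median log2 difference of 5.52 beside −0.27 over all genes. Of 10 smooth muscle markers it called 8 higher and 0 lower, with a median of 3.15. The 2 that were not called were Cnn1, with 69, 57 and 31 normalized counts in Col6a1+ and 69, 80 and 15 in Col6a1− CAFs (limma, adjusted p = 0.904), and Smtn, with 433, 209 and 133 against 190, 80 and 26 (limma, adjusted p = 0.255), and the groups of both overlapped. The summed pericyte markers were 2169, 1561 and 1162 normalized counts in the Col6a1− libraries, against 41767 to 91348 in the Col6a1+ libraries. Pdgfrb, the receptor through which endothelium recruits pericytes, had 2084, 1329 and 1612 counts in Col6a1+ and 115, 89 and 58 in Col6a1− CAFs. Higd1b, a marker of lung and brain pericytes, had 33, 140 and 144 counts against 0 in every Col6a1− library, so that Col6a1+ replicate 1 was its lowest library and not its highest. Acta2, the smooth muscle actin gene, had 13354, 9411 and 20435 counts against 1701, 1363 and 346. The groups did not overlap for Pdgfrb, Higd1b or Acta2. Over the Col6a1+ libraries the receptors were highest in replicate 1 and lowest in replicate 2. That order was held by the pericyte markers Pdgfrb, Rgs5, Kcnj8, Abcc9, Mcam and Anpep, but not by Higd1b, Vtn, Cspg4 or Notch3. Among the smooth muscle markers Tagln and Lmod1 held it, and the others listed, Acta2 among them, did not. The part of these markers in the order of the receptors was not tested. The count for pericytes was 4 without Col6a1− replicate 1 and 6 to 9 without any other single library. That for smooth muscle was 0 without Col6a1− replicate 1, 2 without Col6a1+ replicate 1 or Col6a1− replicate 2, 3 without either replicate 3, and 5 without Col6a1+ replicate 2. Both were 0 in the fit blocked on replicate number.

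**Figure D5:**
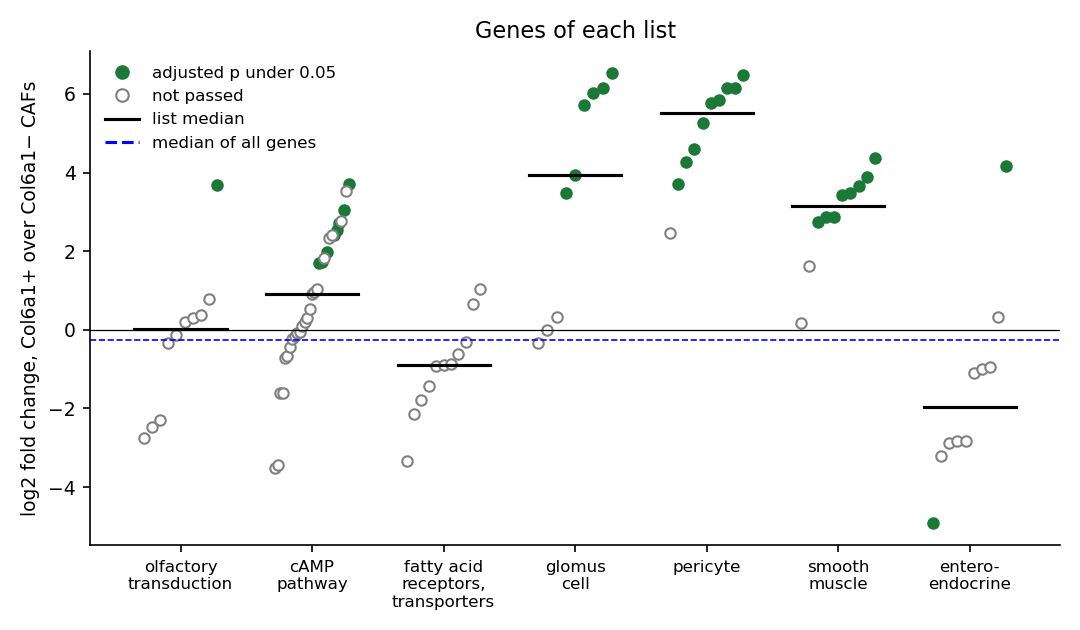
Difference between Col6a1+ and Col6a1− CAFs in mean log2(normalized count + 1) (vertical axis) for the tested genes of each list (horizontal axis), with 1 point per gene, filled where limma gave an adjusted p under 0.05, black lines at the list medians and a dashed line at the median of all genes. The pericyte and glomus cell lists lie highest, with medians of 5.52 and 3.95, and the fatty acid and enteroendocrine lists lie below 0, with medians of −0.90 and −1.97.

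The markers of other cells that the sort could hold also differed between the groups, and their part in the receptor values was not tested. Fibroblast markers summed to 37614 to 41420 normalized counts in Col6a1+ and 7174 to 14272 in Col6a1− CAFs, and of 10 tested limma called 4 higher and 1 lower in Col6a1+ CAFs (2.66% and 1.96% of all genes tested, which also applies to the next lists). Epithelial markers summed to 5298 to 5731 and 18636 to 29452, and of 10 tested 0 were called higher and 7 lower. Immune markers summed to 60 to 118 and 343 to 684, with 0 of 11 called higher and 1 lower. Endothelial markers summed to 492 to 909 and 233 to 614, with 1 of 10 called higher and 0 lower. Their sum was thus mostly higher in Col6a1+ CAFs, but their median log2 difference was −1.13. In 2 of them, Flt1 and Tie1, all Col6a1+ libraries lay above the Col6a1− libraries, and in 1, Cdh5, all lay below. Over all genes tested these shares were 7.91% and 11.6%. Col6a1, whose promoter drives the Cre, had 861, 1287 and 1941 counts in Col6a1+ and 182, 321 and 102 in Col6a1− CAFs (log2 difference 2.82, limma adjusted p = 0.00613, and 0.0542 to 0.106 without any one of Col6a1+ replicates 2 and 3 and Col6a1− replicates 1 and 3). It was higher in every library labelled Col6a1+. The libraries held 3039152 to 3425249 normalized counts each. Col6a1+ replicate 1 had the fewest genes detected, at 14530 against 18770 to 20511 in the other libraries.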

How the data were processed

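RNA from 3 Col6a1+ and 3 Col6a1− CAF libraries was sequenced by the authors from transcript 3′ ends (QuantSeq) on an Ion Proton. The submitters' processing notes name mm10, TopHat2, Bowtie2 and metaseqR. The deposited values were log2(normalized count + 1), which came out as whole normalized counts within 1e-06 for 100% of values, and a second set of signal columns, in which the authors had divided the normalized count by the length of the gene model. The true read depth is unknown here. The authors' fold changes and p-values were left out. Of 49548 genes, 23146 were at 0 in all libraries and 26402 were tested.

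The deposited log2 values were compared with limma (version 3.58.1, R 4.3.3, empirical Bayes with trend, two-sided), adjusted by Benjamini-Hochberg over all 26402 genes. "Called" means an adjusted p under 0.05. No test was made of Olfr78, Olfr558 or, as such, the genes most like them, since the contrast chose them. Cox4i2, 1 of those genes, is also on the glomus cell list and was tested there. Named were the pair, the 5 genes most like each, Olfr genes over 10 counts, neighbours within 250 kb and genes of the listed pathways and markers. Of the genes nearest to Olfr558, 1 is not reported here. The genes and lists were chosen with earlier results of these data known, so the counts of called genes in a list are descriptions. The fit was tested on simulated data.

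Replicate numbers come from the labels. Deviations from the group means correlated at 0.245, 0.125 and 0.144 between libraries of the same number (13515 genes) and at −0.245 to 0.150 between libraries of different numbers. The highest different-number value, 0.150, was over the same-number values of 0.125 and 0.144, so these correlations do not settle whether the numbers mark pairs. The main fit was unpaired, and a fit with the number as a block was an alternative. According to the study, 3 samples were sequenced, each from a pool of tumors of several mice, while the libraries number 6 here. Col6a1+ and Col6a1− cells of the same pool may thus have given separate libraries. The p-values of the main fit measure the spread between libraries of a group and leave such sharing out. The labels do not say which libraries shared a pool. Sequences came from GENCODE M21 transcripts and RefSeq promoters (GRCm38), handled with Python 3.11.15, Biopython 1.88 and BLAST 2.17.0. The other alternatives were scaling by library sums, a mean of at least 10 counts, no filter, a pseudocount of 0.1, each library left out, and an unadjusted p under 0.05 with a log2 difference over 1.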

Additional observations from a re-analysis of the deposited data

How the results depend on the processing

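Among the pair and the 85 named or listed genes recomputed, no called difference changed direction under the alternatives run. The markers of other cell types, apart from Cck and Sct, were not recomputed. With a pseudocount of 0.1 the log2 difference of Olfr78 was 10.02. Leaving out each library in turn gave 6.99 to 7.96 for Olfr78 and 5.54 to 6.55 for Olfr558. Of all genes, 1220 were called (703 higher, 517 lower). Without the filter on genes at 0 there were 28 (21 higher, 7 lower), and with an unadjusted p under 0.05 and a log2 difference over 1 there were 3880 (1607 higher, 2273 lower). In the fit blocked on replicate number, in which libraries of the same number are treated as pairs, 0 genes were called by limma, the smallest adjusted p being 0.0612. In that fit 1851 higher and 2567 lower genes had an unadjusted p under 0.05. Restricted to genes whose mean was 10 normalized counts or more, an alternative chosen after seeing the data, the block fit called 1852 (981 higher, 871 lower). That fit called 1 gene of olfactory signalling, 11 of cyclic AMP (10 higher, 1 lower), 0 of fatty acid receptors, 6 of glomus cells, 10 of pericytes and 9 of smooth muscle, while the block without it called 0 in each. Without the filter the counts were 0 for olfactory signalling, 0 for cyclic AMP, 2 for glomus cells, 2 for pericytes and 0 for smooth muscle. A pseudocount of 0.1 gave 5 for cyclic AMP. The unadjusted criterion gave 3 for olfactory signalling, 14 for cyclic AMP and 1 for fatty acid receptors. Leaving out each library in turn gave 12 (without Col6a1− replicate 1) to 895 over all genes, 0 to 1 for olfactory signalling, 0 to 6 for cyclic AMP, 0 to 0 for fatty acid receptors, 2 to 5 for glomus cells, 4 to 9 for pericytes and 0 to 5 for smooth muscle. Among 85 genes of these lists or named by p, 35 lost their call under the block, which was every gene called among them in the main fit. Of these 35, 31 lost their call without the filter, 5 with a pseudocount of 0.1 and 11 to 30 when a library was left out. The cause of these shifts was not tested. With 3 libraries a group, and Olfr78 at 0 or 1 count in Col6a1− CAFs, the lower level of Olfr78 is not resolved.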
